A study of Mus musculus with 2 samples.

Results

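The replication licensing genes described here are the Mcm2, Mcm3, Mcm4, Mcm5, Mcm6 and Mcm7 genes of the helicase and the Cdc6, Cdt1, Cdc7 and Gmnn genes that load or control it. They were taken by gene name, and all 10 were found once each among the 34745 genes of the tables. RNA-seq was performed on bone marrow LSKs, the cells without lineage markers that carry Sca1 and c-Kit, among which are the hematopoietic stem and early progenitor cells. The mice were Scl/tTA-BA double transgenic animals on the C57BL/6 background, a tet-off model in which tTA is driven by Scl regulatory sequence and BCR/ABL (BA) stays off while doxycycline is given. The week-0 library, labelled control, came from mice kept on doxycycline, and the week-3 library from mice 3 weeks after withdrawal. Both libraries carried both transgenes, and the age of the mice was not given in the sources used here. LSKs of 3 mice were mixed for each library, so there was 1 library per time point and no measure of the spread between mice. Every comparison below is therefore between 2 libraries, without a test, and the 95% intervals (exact Clopper-Pearson) cover counting error only.

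Before S phase, the origin recognition complex and Cdc6 act with Cdt1 to load rings of Mcm2 to Mcm7 onto DNA, one subunit of each kind per ring, and this step is called licensing. Loaded rings stay inactive until Cdc7, the kinase partnered by Dbf4, and cyclin-dependent kinases turn them into moving helicases. Geminin, the product of Gmnn, binds Cdt1 and blocks a new round of loading after S phase has begun. Many of these genes are known targets of E2F transcription factors. Most long-term stem cells of the bone marrow are quiescent, whereas the progenitors that share the LSK gate divide often.

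Reads counted on genes numbered 6356164 at week-0 and 3886695 at week-3. A gene was compared with all others only when it had at least 20 reads over both libraries, which 12192 genes and all 10 licensing genes had. The LSK markers were found in both libraries, all 8 were lower at week-3, and the highest was Flt3 at week-0 and Cd34 at week-3. In FPKM, the fragments on a gene scaled by its exon length and by library size, Kit stood at 16.9 and then 11.5, and Ly6a, which encodes Sca1, at 19.8 and then 14.8. Markers of other cells moved as well. All 11 neutrophil precursor markers were higher at week-3, from 0.350% to 1.65% of the reads, with Elane, a neutrophil protease, at the top of the list in both libraries. Ly6g, however, had only 5 reads in each library, and the counting interval of its log2 ratio between the libraries held 0. All 10 mast cell and basophil markers were higher, from 0.0196% to 0.419%, and of these Mcpt4 and Tpsb2 had no read at week-0. The highest gene of this list was Mcpt8 at week-0 and Tpsb2 at week-3. All 7 monocyte markers were higher, from 0.0457% to 0.122%, with Lyz2 on top. Of these, Adgre1 had 3 and 5 reads and Itgam 30 and 30, and their intervals held 0. Of 10 erythroid markers 9 were lower, from 0.130% to 0.0178% (highest Hbb-bt), and of 11 B lineage and plasma cell markers 10 were lower, from 0.115% to 0.0301%. The top gene of the B lineage list was Jchain at week-0 and Xbp1 at week-3. Of 8 T and NK cell markers 7 were lower, Cd3e and Cd8a had no read at week-3, and the list went from 0.0507% to 0.0709% through Nkg7. All 11 early response genes were lower, from 3.98% to 1.17%, with Zfp36 on top. The part of these differences in the values of the licensing genes was not tested, and in sorted bulk cells more cells of a type and more RNA per cell cannot be told apart.

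All 6 Mcm genes had a higher FPKM at week-3, but none by as much as 1.5 times. Their log2 ratios of FPKM at week-3 over week-0 lay between 0.12 and 0.48, with a median of 0.25, where the median of the 12192 genes was 0.07. A ratio above 1 was found for 53.4% of all genes, and the counting interval lay above 1 for 34.0%. For the Mcm genes these numbers were 6 of 6 and 5 of 6. Whether an interval clears 1 depends on the reads of a gene, and the Mcm genes had more reads than most. Among the 8832 genes with at least 100 reads over both libraries the shares were 55.8% and 39.3%, and the median log2 ratio was 0.10. Summed over the 6 genes, 7470 reads in the first library and 5394 in the second gave 1175 and 1388 CPM (counts scaled to library size), a log2 ratio of 0.24 (95% interval 0.19 to 0.29). With edgeR's TMM scaling of the reads every log2 ratio is lower by 0.11, the median of the 12192 genes included. The counting intervals of 3 of the 6 genes (Mcm3, Mcm4 and Mcm5) then lay above 0, as did those of 3484 of the 12192 genes. A log2 ratio above 0 was then found for 6 of 6 Mcm genes and 47.8% of all genes. Relative to the other genes the helicase genes were thus a little higher in the week-3 library under either scaling, with a median of 0.14 under TMM against -0.04 for all genes.

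Mcm4 (ENSMUSG00000022673, chromosome 16 of GRCm38, from 15623897 to 15637400) stood highest in change among the helicase subunits. Its week-0 level was 36.5 FPKM from 832 reads and its week-3 level 50.8 FPKM from 709 reads, which is a log2 ratio of 0.48 (95% interval 0.33 to 0.63). Mcm5 (ENSMUSG00000005410, chromosome 8, from 75109528 to 75128439) went from 1406 reads and 64.6 FPKM to 1051 reads and 79.0 FPKM, a log2 ratio of 0.29 (0.17 to 0.41). Mcm5 had the highest FPKM of the 10 genes in both libraries, and pairs with Mcm2 at the gate through which the ring opens. Mcm3 (ENSMUSG00000041859, chromosome 1, from 20802968 to 20820312) went from 918 reads and 21.5 FPKM to 684 reads and 26.3 FPKM. Its log2 ratio was also 0.29 (0.14 to 0.43). Mcm7 (ENSMUSG00000029730, chromosome 5, from 138164583 to 138172422) went from 1592 reads and 36.9 FPKM to 1132 reads and 43.0 FPKM, a log2 ratio of 0.22 (0.11 to 0.33). The lowest changes were those of Mcm2 and Mcm6. Mcm2 (ENSMUSG00000002870, chromosome 6, from 88883474 to 88898780) had 945 and 637 reads, an FPKM of 16.6 and 18.3, and a log2 ratio of 0.14 whose interval held 0 (-0.0066 to 0.29). Mcm6 (ENSMUSG00000026355, chromosome 1, from 128331590 to 128359664) had the most reads, 1777 and 1181, an FPKM of 48.1 and 52.2, and a log2 ratio of 0.12 (0.013 to 0.23).

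Within the complex, Mcm4 and Mcm6 moved apart by more than counting error. Set against the reads of the other 5 Mcm genes, a comparison that no library scaling can change, Mcm4 went from 12.5% to 15.1%, a log2 ratio of ratios of 0.27 (95% interval 0.12 to 0.43). Mcm6 went from 31.2% to 28.0%, a log2 ratio of ratios of -0.16 (-0.28 to -0.03). The intervals of Mcm2, Mcm3, Mcm5 and Mcm7 in the same comparison held 0, with values from -0.11 to 0.06. These are 6 comparisons of the same reads, without adjustment.

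**Figure D1:**
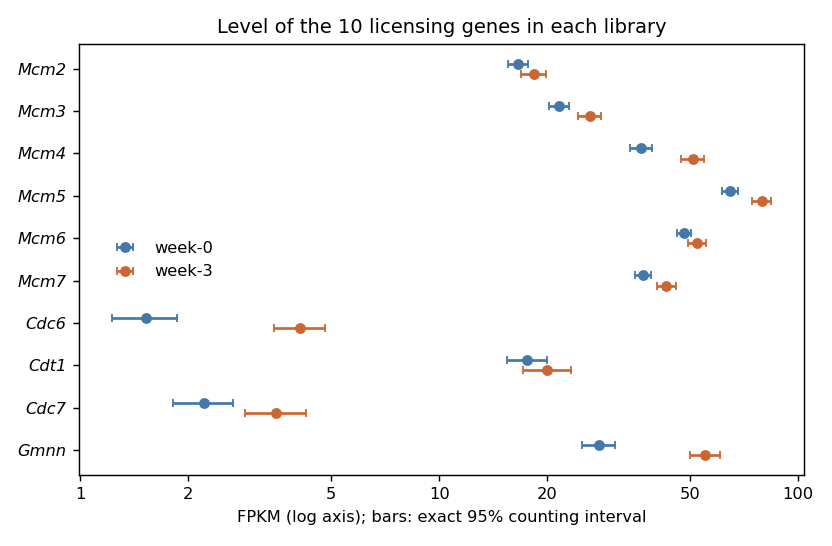
FPKM of the 10 licensing genes on a log axis, 1 point per library, with bars for the exact 95% counting interval. Every week-3 point lies to the right of its week-0 point, with clear gaps for Cdc6 and Gmnn and overlapping bars for Mcm2, Mcm6 and Cdt1.

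The genes that load and control the helicase differed more among themselves. Of the 4 genes, 3 had a ratio of at least 1.5 at week-3 (Cdc6, Gmnn and Cdc7), which makes 3 of all 10 licensing genes, where 23.7% of all genes passed the same limit. At a ratio of 2, 1 of the 10 passed (Cdc6), where 10.6% of all genes did. No licensing gene had a ratio of at most 0.67 or at most 0.5, which 24.8% and 15.6% of all genes had. The share of licensing genes past 1.5 or past 2 was thus near the background.

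Cdc6 (ENSMUSG00000017499, chromosome 11, from 98907801 to 98923940), the ATPase that brings the helicase to the origin recognition complex, had the highest ratio. Its week-0 level was 1.52 FPKM from 93 reads and its week-3 level 4.09 FPKM from 153 reads, which is a ratio of 2.69 and a log2 ratio of 1.43 (95% interval 1.05 to 1.82). Its reads were more numerous in the shallower week-3 library, and 4.91% of all genes had a higher ratio. Gmnn (ENSMUSG00000006715, chromosome 13, from 24751845 to 24761923), which encodes the inhibitor of Cdt1, went from 348 reads and 27.8 FPKM to 422 reads and 55.1 FPKM. Its ratio of 1.98 was just under 2, with a log2 ratio of 0.99 (0.78 to 1.20), and 10.9% of all genes had a higher ratio. Cdc7 (ENSMUSG00000029283, chromosome 5, from 106964322 to 106984432), the catalytic subunit of the kinase that activates loaded helicases, had 110 reads and 2.21 FPKM, then 107 reads and 3.52 FPKM. Its ratio was 1.59 and its log2 ratio 0.67, with an interval from 0.27 to 1.07 that reached below the limit of 1.5, and with TMM scaling the log2 ratio itself, 0.56, lay below it. Cdt1 (ENSMUSG00000006585, chromosome 8, from 122568015 to 122573128), the loading factor that geminin blocks, was the member of this group that stayed close to the helicase genes. It went from 245 reads and 17.6 FPKM to 170 reads and 19.98 FPKM, a log2 ratio of 0.18 (-0.11 to 0.47), so a change of Cdt1 was not detectable at this depth.

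In the order of the log2 ratios, Cdc6 came first, then Gmnn, Cdc7, Mcm4, Mcm5, Mcm3, Mcm7, Cdt1, Mcm2 and Mcm6. The intervals of neighbours overlapped throughout, while the interval of Gmnn lay wholly above those of all 6 Mcm genes and of Cdt1. The same held for Cdc6.

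**Figure D2:**
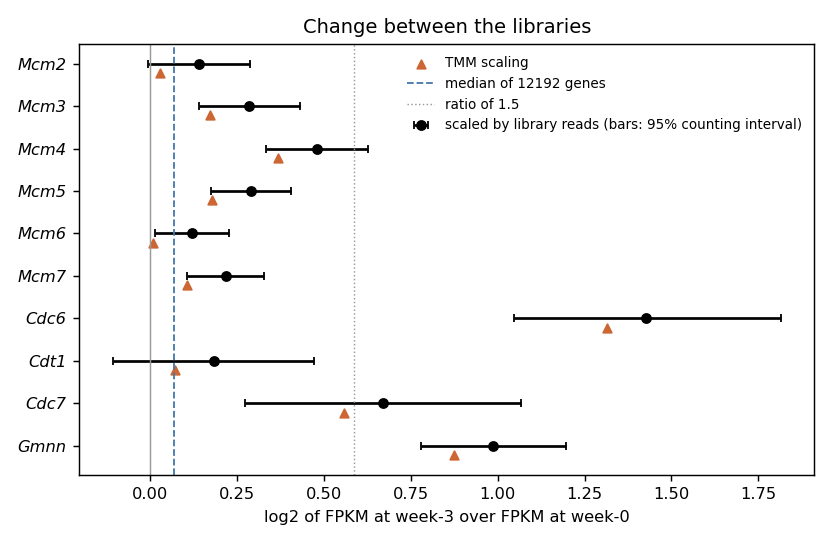
log2 of FPKM at week-3 over week-0 for each licensing gene (points, bars for the 95% counting interval), the same value with TMM scaling of the reads (triangles), the median of 12192 genes (dashed line) and a ratio of 1.5 (dotted line). Cdc6 at 1.43 and Gmnn at 0.99 stand to the right of the dotted line with their whole intervals, and the 6 Mcm points stay left of it.

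The balance between the RNA of the loader gene and that of its inhibitor differed between the libraries. Protein levels of Cdt1 and geminin were not measured, so their balance is not known. Cdt1 stood at 0.634 times the FPKM of Gmnn at week-0 and at 0.363 times at week-3. These levels depend on the gene lengths used, and with the lengths of the longest-coding transcripts they were 0.362 and 0.207, while the change between the libraries does not. In reads, Gmnn went from 142% to 248% of Cdt1, a log2 ratio of ratios of 0.80 (95% interval 0.45 to 1.17). Gmnn also gained on the helicase, from 4.66% to 7.82% of the summed Mcm reads, a log2 ratio of ratios of 0.75 (0.53 to 0.96). Cdc6 went from 1.24% to 2.84% of the same sum, or 1.19 (0.80 to 1.58) on the log2 scale. Cdc7 went from 1.47% to 1.98%, with 0.43 (0.029 to 0.83). Cdt1 kept close to the sum with 3.28% and 3.15%, and its interval ran from -0.35 to 0.24. Cdc6 against Cdt1 gave 1.24 (0.76 to 1.73), Cdc6 against Gmnn 0.44 (0.0017 to 0.88) and Cdc7 against Cdt1 0.49 (-0.0094 to 0.98). The ratios of ratios compare genes within each library, so they do not depend on how the libraries were scaled.

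FPKM is a level per length, and the length the authors divided by matters for the order of the genes within a library. That length was recovered from reads and FPKM and was the same in both libraries, so it cancels in a gene's ratio between the libraries, but not in a level of one gene over another. It was 8950 bases for Mcm2, 6704 for Mcm3, 3589 for Mcm4, 3422 for Mcm5, 5816 for Mcm6 and 6781 for Mcm7. In GENCODE M21, the transcript with the longest coding sequence has 3371, 3031, 3589, 3381, 2910 and 2962 bases in the same order. Only Mcm4, Mcm5 and Cdt1 were therefore divided by about the length of such a transcript, and Cdc6 was divided by 9621 bases where its transcript has 2559. On the deposited FPKM, the highest of the 6 subunits stood 3.89 times above the lowest at week-0 and 4.32 times at week-3, with a coefficient of variation of 47.0% and 47.9% over the subunits. Per kilobase of the longest-coding transcript, the spread was 2.63 and 2.15 times, and the coefficient of variation 38.3% and 33.3%.

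On the transcript scale Mcm6 led the complex with a level of 96.1 (FPKM with that transcript length) at week-0 and 104 after withdrawal, followed by Mcm7 with 84.6 and 98.3 and Mcm5 with 65.4 and 80.0. Mcm4 was the lowest subunit at week-0, with 36.5, and Mcm2 at week-3, with 48.6. On the deposited scale Mcm5 led and Mcm2 was the lowest in both libraries. The order of subunit levels within a library thus depended on the length used. Cdc6 and Cdc7 were the 2 lowest of the 10 genes on either scale in both libraries, at 5.72 and 5.53 on the transcript scale at week-0 and 15.4 and 8.80 after withdrawal. By FPKM, Cdc7 stood above Cdc6 at week-0 with overlapping intervals (1.82 to 2.67 against 1.23 to 1.86), and below it at week-3, again with overlap (2.88 to 4.25 against 3.47 to 4.79). Other neighbours in the FPKM order whose intervals overlapped were Mcm7 with Mcm4 and Cdt1 with Mcm2 at week-0, and Gmnn with Mcm6, Mcm6 with Mcm4 and Cdt1 with Mcm2 at week-3.

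**Figure D3:**
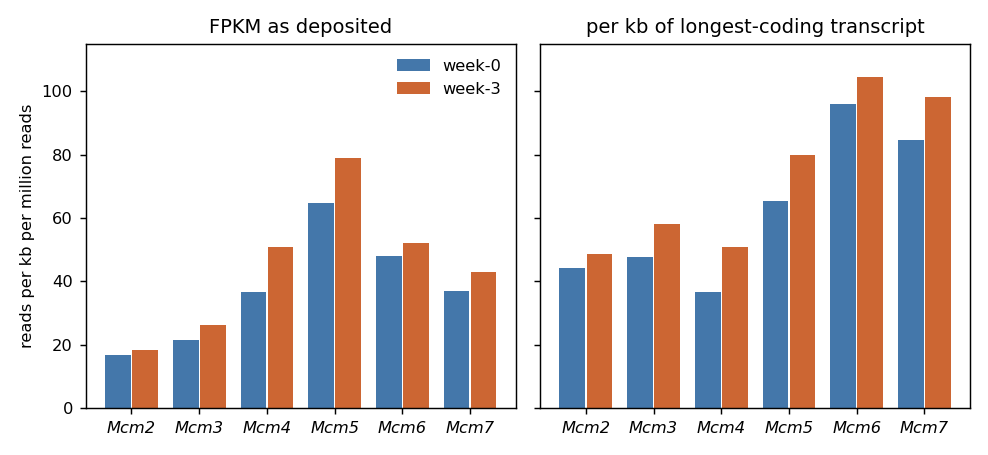
Level of each Mcm subunit in FPKM units at week-0 and week-3, as deposited FPKM (left) and per kilobase of the transcript with the longest coding sequence (right), as bars from 0 on one axis. Mcm5 is tallest on the left with 64.6 and 79.0, and Mcm6 on the right with 96.1 and 104.

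Overlap with exons of other genes was looked for in GENCODE M21 and found for 1 licensing gene. The exons of Mcm7 share 321 bases with Ap4m1 and 64 bases with Cops6, both on the opposite strand in GENCODE M21. Ap4m1 had 70 and 42 reads in the tables and Cops6 927 and 742. No source used here says that counting used the strand, so reads in the shared bases cannot be told apart. Mcm7 also holds the miRNA genes Mir25, Mir93 and Mir106b, which were not analysed here. No exon of another gene was found on the remaining 9 genes in GENCODE M21. The length the authors divided by exceeded all GENCODE M21 exons of Mcm2, Mcm3, Mcm6, Mcm7, Cdc6, Cdc7 and Gmnn. For Cdc6 it was 9621 bases against 5229. Overlaps in the exons used for counting are therefore not known.

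Most promoters of these genes held a sequence feature that the choice by name did not use. RefSeq windows from 250 bases before to 50 bases after the start (GRCm38.p6) were matched for 8 of the 10 genes, Mcm4 and Gmnn being the others. They were searched on both strands for the E2F words TTTCCCGC, TTTCGCGC, TTTGCCGC and TTTGGCGC, which are forms of one consensus and can overlap each other. At least 1 word was found for 6 of the 8 genes, where 4.87% of the 8848 genes with a window and at least 20 reads and 2.60% of all 27025 genes held one. Among genes with at least 20 reads and a promoter GC content of 60% or more the share was 5.75%. The stretches around the words are shown to let them be compared between the genes, on the strand of the gene (minus for Mcm3, Mcm6 and Mcm7, plus for Mcm5, Cdt1 and Cdc6), with the words in capitals and the distance of the first capital from the RefSeq start. Mcm7 has 2 RefSeq starts, and its words lie in the window of the upstream one. That RefSeq start lay 539 bases after the Mcm7 start in the deposited tables. Its window thus lay wholly after the deposited start, and the sequence before that start was not searched.
Mcm3, 19 bases after the start, chr1:20820275-20820304: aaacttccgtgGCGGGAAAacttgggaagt
Mcm3, 38 bases after the start, chr1:20820263-20820285: acttgggaagtTTTGGCGCcaag
Mcm6, 110 bases before the start, chr1:128359793-128359826: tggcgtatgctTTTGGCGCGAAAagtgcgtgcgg
Mcm6, 47 bases before the start, chr1:128359734-128359763: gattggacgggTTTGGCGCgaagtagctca
Mcm7, 165 bases before the start, chr5:138172030-138172059: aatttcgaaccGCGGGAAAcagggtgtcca
Mcm7, 16 bases after the start, chr5:138171849-138171878: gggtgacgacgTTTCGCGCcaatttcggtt
Mcm5, 153 bases before the start, chr8:75109345-75109378: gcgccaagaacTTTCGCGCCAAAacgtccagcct
Cdt1, 32 bases after the start, chr8:122568036-122568064: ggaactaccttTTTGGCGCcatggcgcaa
Cdc6, 138 bases before the start, chr11:98908002-98908031: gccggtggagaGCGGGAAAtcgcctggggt
Mcm5 and Mcm6 each held a pair of words that overlap on opposite strands. Mcm2 and Cdc7 held none in their windows, which says only that these letters are not there. A match is likewise a description of the letters and not a measured binding site. The window of Mcm6, the gene with the lowest change, had 3 words, of which 2 overlap. That of Cdc6, the gene with the highest change, had 1. Whether the words go with the ratios was not tested. Both windows are given whole, again with the words in capitals. They are in RefSeq's GRCm38.p6, on the minus strand for Mcm6 and the plus strand for Cdc6. The RefSeq start lay 41 bases from the start in the deposited tables for Mcm6 and 350 bases for Cdc6. The Cdc6 window thus lay wholly after the deposited start, and the sequence before that start was not searched.
Mcm6, chr1:128359656-128359955: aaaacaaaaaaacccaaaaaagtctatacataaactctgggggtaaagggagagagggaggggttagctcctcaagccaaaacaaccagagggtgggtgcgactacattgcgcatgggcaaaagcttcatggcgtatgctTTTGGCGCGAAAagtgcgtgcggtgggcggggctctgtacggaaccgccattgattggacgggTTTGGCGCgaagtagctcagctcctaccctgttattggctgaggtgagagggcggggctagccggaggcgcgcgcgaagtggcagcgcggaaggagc
Cdc6, chr11:98907901-98908200: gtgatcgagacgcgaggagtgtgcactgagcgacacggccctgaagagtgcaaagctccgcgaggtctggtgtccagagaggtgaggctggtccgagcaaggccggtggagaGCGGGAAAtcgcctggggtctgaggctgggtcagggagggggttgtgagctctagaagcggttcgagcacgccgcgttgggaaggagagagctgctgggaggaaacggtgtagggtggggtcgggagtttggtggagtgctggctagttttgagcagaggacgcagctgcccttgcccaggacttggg
Of the other lists, the words were found for 4 of 11 genes of origin recognition and Mcm relatives, 2 of 7 of helicase activation, 4 of 13 of licensing control, 8 of 28 of the replisome, 6 of 20 other S-phase genes and 0 of 20 mitotic genes. No test was made of these shares.

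Beside the 10 genes, the rest of the replication machinery was read from lists chosen by function. For all genes, the share at a ratio of at least 1.5 was 23.7%, and 19.2% with TMM scaling. Of 11 genes for origin recognition and Mcm relatives, 4 reached a ratio of 1.5 and none lay at 0.67 or below, with a median log2 ratio of 0.21. Orc2, a subunit of the origin recognition complex, had 63 and 135 reads and a log2 ratio of 1.81 (95% interval 1.37 to 2.26). Mcmbp, which encodes a protein that binds Mcm subunits, had far more reads, 887 and 1489, and a log2 ratio of 1.46 (1.34 to 1.58). The lowest gene was Kat7, a histone acetyltransferase that acts at origins, with -0.26 (-0.51 to -0.01). The intervals of Orc2 and Mcmbp lay above those of all 6 Mcm subunits.

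Helicase activation, the step after licensing, had 7 of 13 genes at a ratio of at least 1.5 (5 with TMM) and a median log2 ratio of 0.63. Mcm10, which despite its name is no part of the ring and acts when helicases start, had 71 and 138 reads and a log2 ratio of 1.67 (1.25 to 2.10). Gins3, a subunit of the GINS complex that joins the active helicase, had 1.25 (0.60 to 1.92) from 35 and 51 reads. Recql4 had 1.20 from 30 and 42 reads, and Mtbp had 1.17 from 37 and 51 reads. The lowest gene was Donson with -0.26 (-0.83 to 0.30). Genes of this step ranged from -0.26 to 1.67. Each had at most 459 reads in a library, where every Mcm gene had at least 637. With fewer reads per gene and a longer list, their spread cannot be set beside that of the Mcm genes.

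Among 15 genes that control licensing through cyclin-dependent kinases and protein turnover, 5 had a ratio of at least 1.5 and 1 a ratio of at most 0.67, with a median of 0.20. Ccne2 and Ccne1, the E cyclins of the entry into S phase, had log2 ratios of 1.93 and 1.57, and Skp2, a ubiquitin ligase subunit that targets Cdt1, had 1.15 from 31 and 42 reads. Ccna2, the A cyclin of S phase and mitosis, went the other way, from 1025 reads and 25.7 FPKM to 388 reads and 15.9 FPKM, a log2 ratio of -0.69 (-0.86 to -0.52).

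Of 33 replisome genes with at least 20 reads, 9 reached a ratio of 1.5 (8 with TMM) and 2 had a ratio of at most 0.67, with a median of 0.38. Wdhd1, which links polymerase alpha to the helicase, had 225 and 414 reads and 1.59 (1.35 to 1.83), and Dna2, a nuclease, had 78 and 129 reads and 1.44 (1.02 to 1.86). Pole, the catalytic subunit of the leading-strand polymerase, had 647 and 165 reads and a log2 ratio of -1.26 (-1.52 to -1.01). Chtf8, a subunit of a clamp loader that works with that polymerase, had 185 and 43 reads and -1.40 (-1.91 to -0.91). The replisome thus held genes past both limits. None of the 10 licensing genes lay at 0.67 or below. The same was true of the origin recognition, helicase activation, other S-phase and mitotic lists.

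Of 24 other S-phase genes, 14 reached a ratio of 1.5, with a median of 0.63, and 9 did so with TMM scaling. Their highest gene was Rrm2, a subunit of ribonucleotide reductase, at 2.12 (1.91 to 2.34), and their lowest was Rbl1 at -0.26 (-0.57 to 0.05). Of 23 mitotic genes, 9 reached a ratio of 1.5 (6 with TMM) and the median was 0.39, with Ttk, a spindle checkpoint kinase, highest at 1.82 and Ccnb2, a B cyclin, lowest at -0.20. The median of the Mcm genes, 0.25, was thus below those of helicase activation, the replisome, other S-phase and mitotic genes, and above those of origin recognition and licensing control. Whether these lists differ was not tested, since genes of 2 libraries are not replicates.

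**Figure D4:**
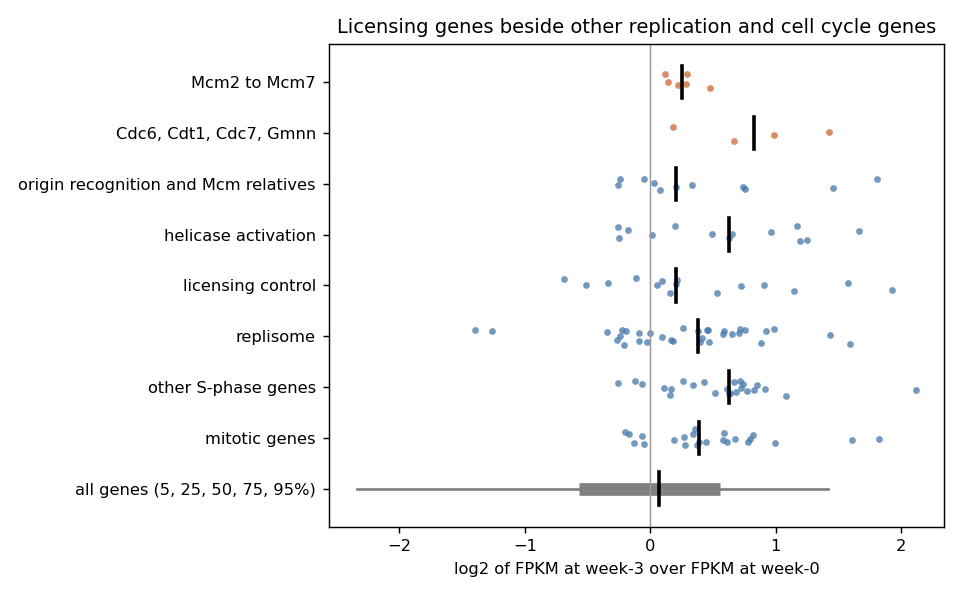
log2 of FPKM at week-3 over week-0 for each gene with at least 20 reads (points) in the licensing genes (orange) and 6 other lists (blue), with the median of each list as a black bar, and the 5, 25, 50, 75 and 95% points of all 12192 genes below. The 6 Mcm genes lie from 0.12 to 0.48, and the 33 replisome genes, most of them with fewer reads, from -1.40 to 1.59.

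The terms in the deposited tables gave lists that were not assembled by hand. The KEGG pathway DNA replication held 33 genes, of which 6 were licensing genes. Of its 26 other genes with at least 20 reads, 6 reached a ratio of 1.5, which is near the 23.7% of all genes. A ratio of at most 0.67 was found for 1, and their median log2 ratio was 0.33. The GO term DNA replication initiation had 13 other genes with at least 20 reads, 4 of them at 1.5 or more, and a median of 0.03. The GO term MCM complex adds Mcm8, Mcm9, Mcmbp, Mms22l and Tonsl to the 6 subunits, and these 5 had a median of -0.05, with Mcmbp the 1 gene above 1.5. Mcm8 and Mcm9, relatives that act in recombination, had log2 ratios of 0.21 (-0.39 to 0.79) and -0.05 (-0.72 to 0.59), from 61 and 43 and from 56 and 33 reads, and no change was detectable for them.

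The genes nearest to the mean of Mcm2 to Mcm7 in the plane of log2 FPKM at week-0 and week-3 were Sat1, Atp5j, Vdac2, 1810022K09Rik and Tsr3, at distances from 0.010 to 0.058. Likeness over 2 libraries means only that the level and its change were alike. Sat1, for instance, had 33.6 FPKM at week-0 and 40.4 at week-3, a log2 ratio of 0.27.

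**Figure D5:**
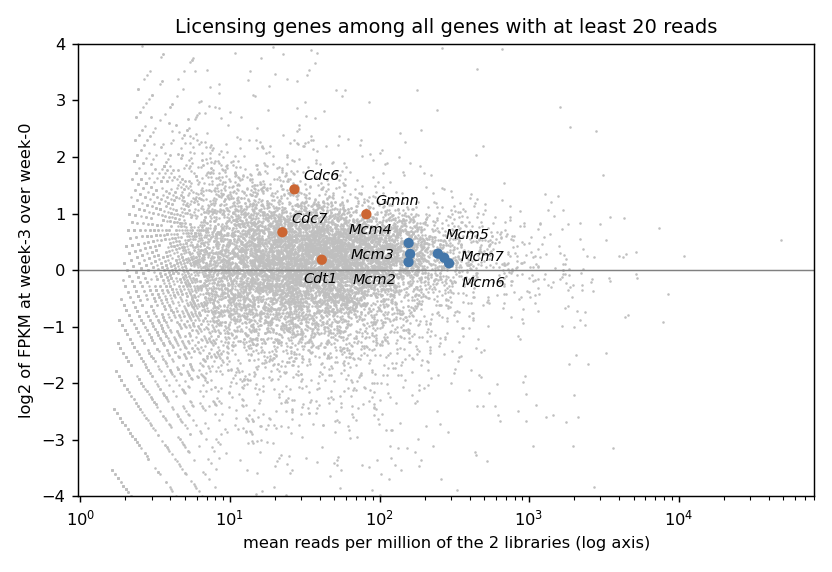
log2 of FPKM at week-3 over week-0 against mean CPM on a log axis for genes with at least 20 reads (grey), with Mcm2 to Mcm7 in blue and Cdc6, Cdt1, Cdc7 and Gmnn in orange. The axis leaves out 121 genes beyond 4 in either direction and 110 genes with no read in 1 library, and the licensing genes all lie above the line at 0.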

How the data were processed

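Per the methods of the study, RNA of LSKs was made into cDNA with a SMARTer kit for ultra low input and sequenced in paired-end mode, and trimmed reads were mapped to GRCm38 with TopHat (TopHat2 2.0.9 in the submitters' processing notes). The authors deposited counts of reads per gene, without normalization, and FPKM, which they had scaled by exon length and library reads. The counting tool and annotation release are not given in the sources used here. Libraries were grouped by the time in the labels. Ratios are FPKM at week-3 over week-0 without a pseudocount, with exact 95% Clopper-Pearson intervals from the reads, and ratios of ratios are conditional odds ratios with exact 95% intervals. With 1 library per time point no test between the conditions was possible. Genes past the fold limits (2 and 0.5, or 1.5 and 0.67) were counted over genes with at least 20 reads over both libraries. The study used 2 and 0.5 for RNA-seq, together with a q-value under 0.05, and 1.5 and 0.67 for its miRNA array. As alternatives, edgeR 4.0.16 (TMM, and the exact test with an assumed biological coefficient of variation, which compares these 2 libraries only), size factors of DESeq2 1.42.0, pseudocounts, read limits and transcript lengths were used. Transcripts came from GENCODE M21 and promoters from RefSeq, both on GRCm38. Procedures were tested on simulated data. The limit that a count of 0 allows (3 reads) was 0.472 CPM in the first library and 0.772 in the second. Intervals cover counting error only, with each read taken as independent. Spread between mice is not in them, and neither is spread from the amplification of cDNA before sequencing. The licensing genes and all lists were chosen with earlier results of these data known. Named genes are the 10 licensing genes, the highest and lowest gene of each list, genes past 2 or 0.5 in 4 of the lists, Kit and Ly6a, the top gene of each marker list and the 5 nearest genes. Mcm8, Mcm9, Mms22l, Tonsl, overlapping genes and markers without reads were named after their values were seen. Python 3.11.15, scipy 1.17.1 and R 4.3.3 were used.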

Additional observations from a re-analysis of the deposited data

How the results depend on the processing

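No paired analysis was possible because there is 1 library per time point, and for the same reason no library could be left out. Of 60 values of single licensing genes under 6 alternatives, 57 stayed inside their counting interval and none changed sign. The 3 others were Mcm6 (0.0079) and Mcm7 (0.11) with TMM and Cdc6 (1.01) with a pseudocount of 1. The median log2 ratio was 0.18 for the 10 genes and 0.14 for Mcm2 to Mcm7 with TMM, and 0.20 and 0.16 with median-of-ratios scaling, where the shift of all genes was -0.11 and -0.09. The number of the 10 genes at a ratio of at least 1.5 was 2 with TMM, where 19.2% of all genes passed, since Cdc7 went under the limit. It was 0 when edgeR's exact test had also to give a q-value under 0.05 with a biological coefficient of variation of 0.4, a setting with 50 of 12192 genes called, and 2 with one of 0.1, with 2212 genes called. Both values were assumed, not estimated from replicates. The number at a ratio of at least 2 was 2 with library totals that leave out the 13 genes most abundant in either library, since Gmnn passed. With transcript lengths, the highest Mcm subunit stood 2.63 and 2.15 times above the lowest at week-0 and week-3, the coefficient of variation was 38.3% and 33.3%, and Cdt1 stood at 0.362 and 0.207 times Gmnn. That last alternative, and library totals without the marker and early response lists, were chosen after seeing the data. Depth limits Cdc6, Cdc7 and Cdt1 most, with 93 to 245 reads.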
